A study of Oryza sativa with 12 samples.

Results

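The genes described here gave their highest signal in the florets of 1 rice line at 1 temperature. They were chosen by their measured values. A probe set (the group of short probes on an array that reads 1 transcript) was taken when its mean log2 signal in Co27LT was at least 7 and at least 0.8 above the mean of each of the 3 other groups, and when each of the 3 Co27LT arrays lay above all 9 other arrays. Of 57194 probe sets, 232 met these conditions, and 9 of them, which read JAZ genes, TPP7 and MYB4, were left out by the same rule, which leaves 223. The annotation gives exactly 1 gene for 158 of these probe sets, 143 genes in all, several genes for 1 and none for 64. A gene symbol, or a locus from the study's supplementary tables, named 60 of the 223.

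The data come from 12 Affymetrix rice arrays, each with total RNA of field-grown inflorescences at the meiosis stage, in 4 groups of 3 biological replicates. H1493 is the wild-type japonica line, Hejiang 19. TGMS-Co27 is a single transgenic line made from H1493, in which an overexpression construct derived from Ugp1, a UDP-glucose pyrophosphorylase gene, cosuppresses Ugp1, and the line is male-sterile at high temperature and fertile at low temperature. H1493HT and Co27HT are the 2 lines harvested at a daily average of 28 °C, and H1493LT and Co27LT are the same lines at 20 °C. The 2 temperatures were reached at different sites, in different seasons and under different day lengths, so temperature cannot be told apart from these. An inflorescence holds many cell types, and in such a sample more cells of a type and more RNA per cell cannot be told apart.

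Plants that meet cold let calcium into the cytosol, where calmodulin-like proteins and calcium-dependent kinases read the ion and pass the signal to MAP kinases and transcription factors. DREB1 (CBF) factors bind the dehydration-responsive element and switch on cold-response genes, and WRKY factors act in stress and defence. Trehalose-6-phosphate phosphatases make trehalose, a sugar tied to cold tolerance in rice, and the phenylpropanoid enzymes lead to lignin and phenolics.

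Checks on the arrays come first. Ugp1 read 13.42, 13.43 and 13.36 (log2 signal) in H1493HT, 11.36, 11.39 and 11.44 in Co27HT, 13.62, 13.64 and 13.57 in H1493LT and 12.91, 12.89 and 12.86 in Co27LT. Both TGMS-Co27 groups therefore lay below both H1493 groups, with Co27LT nearer to the wild type than Co27HT. Whether this probe set reads endogenous or transgene transcripts is not given in the sources used here. By qRT-PCR the study reported endogenous Ugp1 as strongly suppressed in TGMS-Co27 at both temperatures. It also reported total Ugp1 mRNA, endogenous and transgenic, as higher in TGMS-Co27 at low than at high temperature. The study ascribed this rise to correctly spliced transgene transcripts. Of 64 control probe sets for reporter genes, 2 were above 8 on all 6 TGMS-Co27 arrays. The brighter of them read between 14.1 and 14.4 there, between 0.40 and 3.88 in H1493HT, and 8.19, 8.48 and 8.15 on the 3 H1493LT arrays, which is 1.48% of the linear signal in Co27LT. On this probe set the H1493LT libraries thus go partly against their wild-type label, and where the signal came from was not tested. The second such probe set averaged 3.49 ± 1.52 (SD, n = 3) in H1493LT and 9.92 ± 0.02 in Co27LT. What part this had in the values below was not tested, and without the condition against H1493LT the rule takes 3232 probe sets. Floral organ identity genes were bright in every group, with a log2 of their summed signal between 15.95 and 16.22. Clock genes had a median difference of -0.56 between Co27LT and H1493LT over 6 genes, leaf and green tissue genes of -0.55 over 8 genes, and tapetum and pollen wall genes of -0.48 over 12 genes, against -0.01 for all probe sets. Of these lists, only 2 genes, both of the tapetum list, passed an adjusted p of 0.05 with a 2-fold difference: TDR, a tapetum transcription factor, was lower in Co27LT by a log2 difference of -1.06 ± 0.17 (SE, adjusted p = 0.0160, limma) and CYP703A3, a pollen wall enzyme, by -1.64 ± 0.25 (adjusted p = 0.0135, limma). Over all lists 3 genes were lower by that threshold, and without H1493LT replicate 1 or Co27LT replicate 3 none was. The part of these genes in the results below was not tested.

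The same conditions applied to each other group in turn took fewer probe sets: 97 were high only in H1493HT, 78 only in Co27HT and 52 only in H1493LT, and the mirrored conditions took 113 that were low only in Co27LT. The margin, which is the Co27LT mean minus the highest of the other group means, ran from 0.80 to 4.73 with a median of 1.19, a fold of 2.28. It reached 1 for 152 probe sets and 2 for 27. Co27LT means ran from 7.01 to 13.31 with a median of 9.25, and 69 reached 10. The median SD over the 3 Co27LT arrays was 0.10. The second highest group was H1493LT for 161 probe sets, Co27HT for 41 and H1493HT for 21. These values chose the probe sets and are a description. Just inside the margin of 0.8 lay RR9 with 0.80 and a pair of probe sets without an annotated name, with 0.80 and 0.81. Just outside lay PP2C15, AOS and LOC_Os12g36110, each of which rounds to 0.80.

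**Figure D1:**
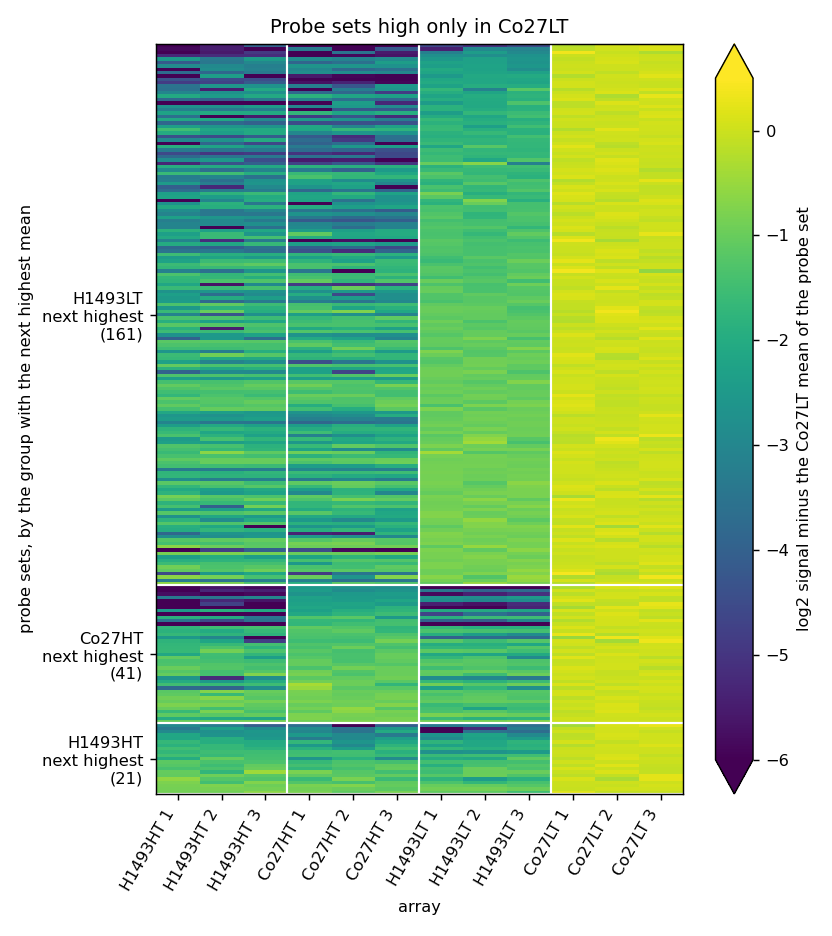
Log2 signal of each of the 223 probe sets on each of the 12 arrays, minus the probe set's own Co27LT mean, with colours that stop at -6 and at 0.5. Rows are grouped by which group had the next highest mean, H1493LT for 161, Co27HT for 41 and H1493HT for 21, and the 3 Co27LT columns are the brightest in every row.

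The detection call, made by the array software from the mismatch probes, was present on all 3 Co27LT arrays for 217 of the 223, on all 12 arrays for 121, and on none of the Co27LT arrays for 2. For 7 probe sets it was present on the 3 Co27LT arrays and on no other. WRKY24 and 1 of the 3 probe sets of LOC_Os01g47580 were among these 7. A log2 signal under 6 is near background, so a difference that involves such a mean has no exact size. At least 1 other group was under 6 for 87 probe sets and all 3 were for 19, while 136 had no group under 6.

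Among the transcription factors, DREB1G, a member of the DREB1 family, had the widest margin, 2.82. It read 5.28, 6.30 and 5.75 in H1493HT, 5.73, 5.04 and 6.07 in Co27HT, 1.28, 3.40 and 5.32 in H1493LT, and 8.51, 8.66 and 8.62 in Co27LT. The 2 high-temperature groups overlapped, H1493LT was the lowest and most scattered group, with no present call, and each of the 9 arrays outside Co27LT was at or below 6.30. H1493LT and H1493HT differed by -2.44 ± 0.83 (SE, adjusted p = 0.0598, limma), which did not pass.

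LOC_Os08g36920, an AP2 domain protein, read 6.94, 7.08 and 7.66 in H1493HT, 6.09, 6.44 and 5.89 in Co27HT, 9.77, 9.68 and 9.58 in H1493LT, and 11.86, 11.78 and 11.75 in Co27LT. The 4 groups did not overlap, and Co27HT was lowest. In H1493 the gene rose at low temperature by 2.45 ± 0.20 (SE, adjusted p = 2.13e-05, limma), and at high temperature it was lower in TGMS-Co27 than in H1493, by -1.08 ± 0.20 (adjusted p = 0.0294, limma). A second, dim probe set of the gene had the same order of groups, with means of 3.52, 2.22, 5.87 and 7.09.

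BHLH148, a basic helix-loop-helix factor, read 6.78, 6.56 and 6.71 in H1493HT, 3.60, 5.78 and 5.76 in Co27HT, 8.14, 8.0 and 8.13 in H1493LT, and 10, 10 and 9.94 in Co27LT. All 3 Co27HT arrays were under 6, and the groups did not overlap, yet neither the temperature difference in H1493 (adjusted p = 0.0654, limma) nor the line difference at high temperature (adjusted p = 0.125) passed. LOC_Os02g41510, a MYB family factor, had group means of 5.44, 4.97, 6.04 and 7.72 in H1493HT, Co27HT, H1493LT and Co27LT, and LOC_Os03g60570, a C2H2 zinc finger protein, had 7.02, 6.63, 7.89 and 9.94. For both, the temperature difference in H1493 did not pass (adjusted p = 0.245 and 0.157, limma).

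Of the WRKY factors, WRKY71, a repressor of gibberellin responses in aleurone cells, read 9.69, 9.62 and 9.79 in H1493HT, 8.93, 8.98 and 8.78 in Co27HT, 11.10, 11.23 and 11.17 in H1493LT, and 12.13, 12.09 and 12.16 in Co27LT. No group overlapped another, and the order was that of LOC_Os08g36920. WRKY71 rose at low temperature in H1493 by 1.47 ± 0.09 (SE, adjusted p = 5.15e-06, limma) and at high temperature the TGMS-Co27 level was the lower, by -0.80 ± 0.09 (adjusted p = 0.00482). A second probe set of WRKY71 that the rule did not take had means of 7.28, 6.77, 8.43 and 9.20, the same order with a margin of 0.77.
WRKY53 (LOC_Os05g27730), a factor of defence and brassinosteroid signalling, differed in pattern: its 9 other arrays lay between 11.72 and 11.96, and the Co27LT arrays at 12.80, 12.83 and 12.87. Its temperature difference in H1493 was 0.14 ± 0.08 (adjusted p = 0.257, limma), which did not pass. WRKY24, a repressor of gibberellin and abscisic acid signalling, was dim, with means of 4.70, 3.82, 6.96 and 7.77, and rose in H1493 by 2.26 ± 0.60 (adjusted p = 0.0209). Of the 6 WRKY genes with a symbol in the annotation, 2 were in the set, and none of the 4 others passed the test between Co27LT and H1493LT.

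**Figure D2:**
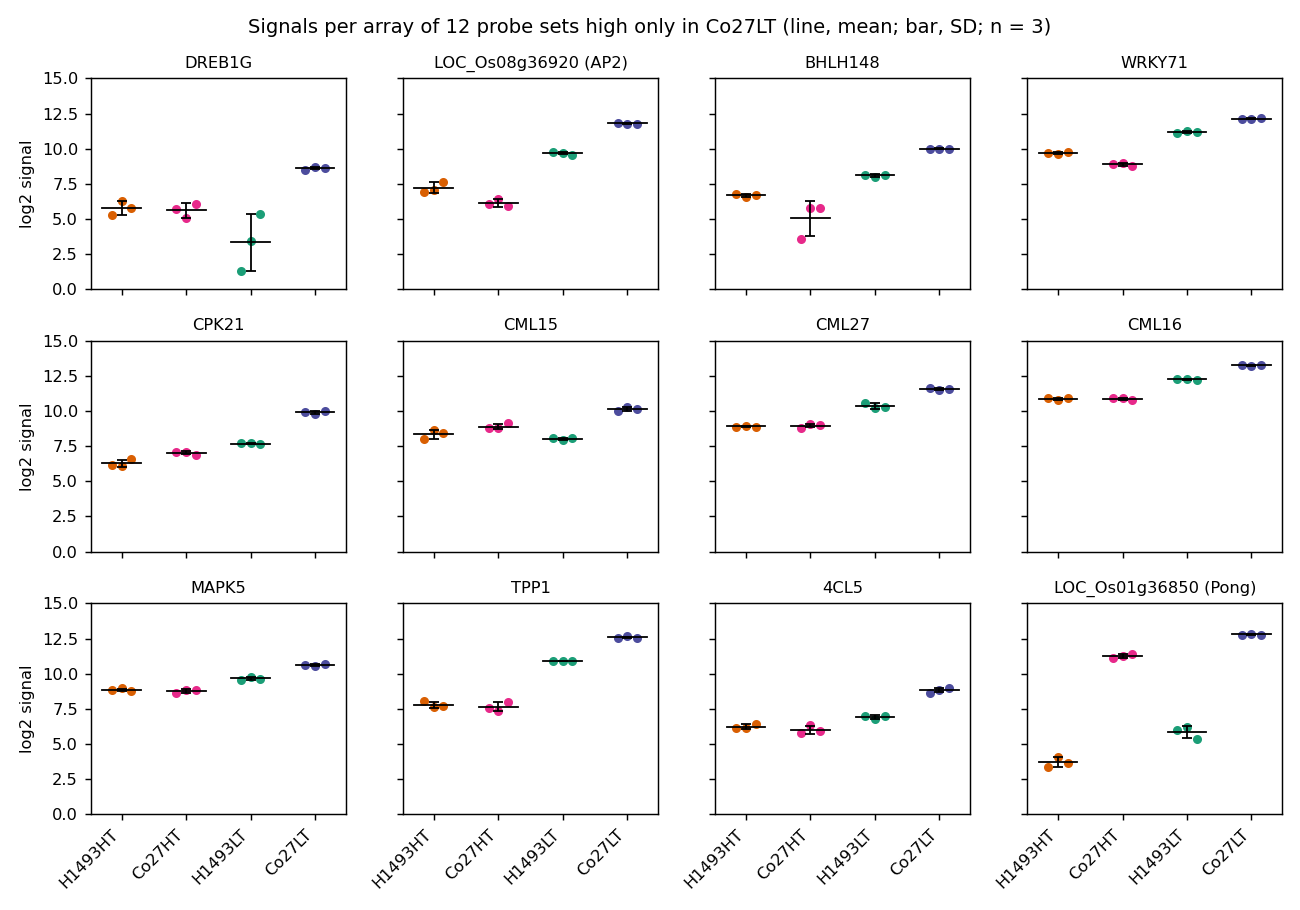
Log2 signal on each array for 12 of the 223 probe sets, by group, with the mean as a line and the SD as a bar (n = 3). In LOC_Os08g36920 and WRKY71 the H1493LT points lie between those of the high-temperature groups and Co27LT, in DREB1G the H1493LT points are lowest, and in LOC_Os01g36850 both TGMS-Co27 groups are above both H1493 groups.

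Of the 3193 probe sets with 1 gene and a symbol or synonym, 30 were in the set. Among the gene lists, the set held 2 of 6 WRKY, 2 of 9 trehalose, 1 of 8 DREB and 2 of 17 MAP kinase genes. These lists are too short to rank. They count genes, whereas the 30 of 3193 counts probe sets. The largest list, of 82 measured calcium sensors, calcium-dependent kinases and calcium pumps, had 9 genes in the set. Its share is not ranked against those of the shorter lists. CPK21, a calcium-dependent protein kinase, had the widest margin, 2.22, and read 6.19, 6.10 and 6.58 in H1493HT, 7.11, 7.07 and 6.91 in Co27HT, 7.75, 7.71 and 7.63 in H1493LT, and 9.97, 9.80 and 9.99 in Co27LT. Its 4 groups did not overlap. CPK21 rose at low temperature in H1493 by 1.40 ± 0.14 (SE, adjusted p = 5.89e-05, limma) and at high temperature was also the higher in TGMS-Co27, by 0.74 ± 0.14 (adjusted p = 0.0297).

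The calmodulin-like proteins bind calcium through EF hands and have no catalytic activity of their own. CML16 was the brightest of them and read 10.91, 10.79 and 10.95 in H1493HT, 10.94, 10.92 and 10.81 in Co27HT, 12.29, 12.25 and 12.23 in H1493LT, and 13.29, 13.23 and 13.28 in Co27LT. The lines overlapped at high temperature, and H1493 rose at low temperature by 1.38 ± 0.08 (SE, adjusted p = 4.01e-06, limma).
CML27 had the same order, with 8.90, 8.97 and 8.87 in H1493HT, 8.83, 9.06 and 9.03 in Co27HT, 10.56, 10.19 and 10.32 in H1493LT, and 11.63, 11.48 and 11.59 in Co27LT, and rose in H1493 by 1.44 ± 0.12 (adjusted p = 2.09e-05). A second, dim probe set of CML27 that the rule did not take had another order. Its means were 5.23, 5.71, 4.71 and 6.16, with H1493LT lowest. CML31 rose in H1493 by 1.63 ± 0.25 (adjusted p = 0.000982), from a mean of 6.48 to 8.11, and averaged 9.64 in Co27LT.

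CML15 behaved differently. It read 8.03, 8.66 and 8.42 in H1493HT, 8.81, 8.78 and 9.14 in Co27HT, 8.07, 7.96 and 8.10 in H1493LT, and 9.99, 10.27 and 10.17 in Co27LT. Its H1493LT arrays overlapped those of H1493HT (difference -0.33 ± 0.17, SE, adjusted p = 0.223, limma), and Co27HT, not H1493LT, was the second highest group. CML14 (means 6.68, 6.6, 7.16 and 8.47), CPK4 (9.25, 9.34, 9.37 and 10.38), CIPK21, a kinase that works with calcineurin B-like sensors (8.78, 8.54, 8.88 and 9.95), and ACA7, of the calcium pump family (7.85, 7.65, 8.08 and 9.05), had no temperature difference in H1493 that passed (adjusted p from 0.250 to 0.649). LOC_Os09g24580, an EF hand protein outside the list, read 7.84 to 8.16 in H1493HT, 7.23 to 8.14 in Co27HT, 7.74 to 8.07 in H1493LT and 9.74 to 9.91 in Co27LT, with the 3 other groups overlapping.

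Of the 73 genes of the calcium list that were not in the set, the median difference between Co27LT and H1493LT was 0.05, against -0.01 over all probe sets, and none passed an adjusted p of 0.05 with a 2-fold difference in that comparison, where 0.446% of all probe sets were higher in Co27LT and 0.252% lower by that threshold. CML10 and CML30 were higher in Co27LT by 0.74 ± 0.08 (SE, adjusted p = 0.00226, limma) and 0.82 ± 0.08 (adjusted p = 0.00137), and CIPK7 and CIPK14 were lower, by -0.53 ± 0.08 (adjusted p = 0.0129) and -0.57 ± 0.09 (adjusted p = 0.0112). These 4 were named after their values were seen. Between temperatures in H1493, 7 of the 82 rose and 5 fell by that threshold, 8.54% and 6.1%, near the 5.34% and 6.24% of all probe sets, and 4 of the 7 were in the set: CPK21, CML16, CML27 and CML31.

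**Figure D3:**
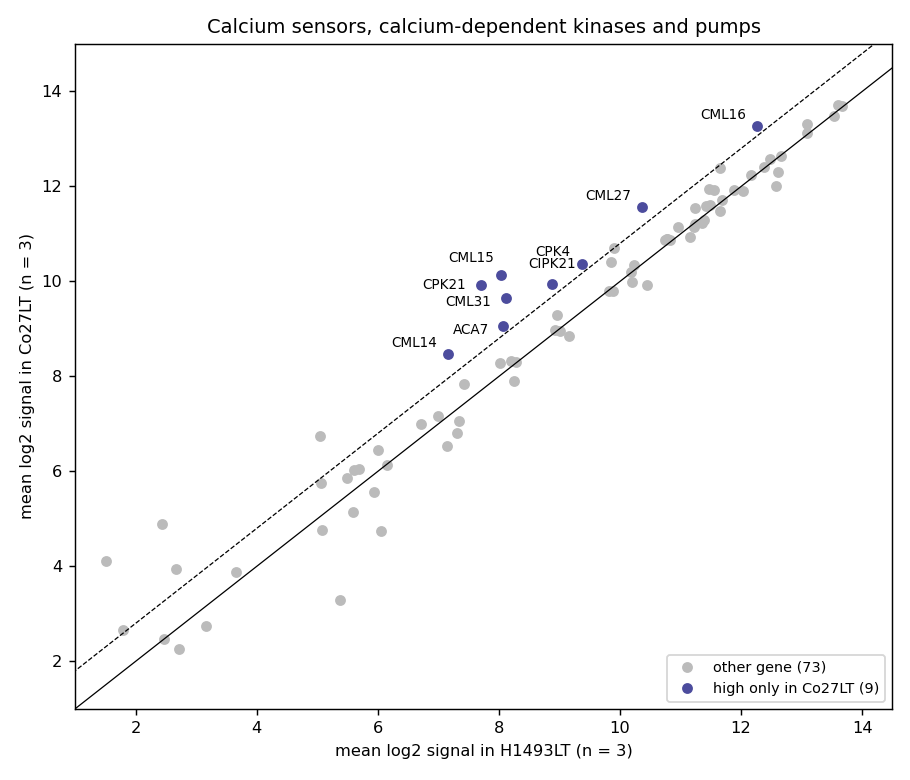
Mean log2 signal in Co27LT against that in H1493LT for the 82 calcium genes, with the line of equality and a dashed line 0.8 above it. The 9 genes high only in Co27LT lie above the dashed line by choice, and other genes above it are dim or failed another condition of the rule.

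Among signalling enzymes, MAPK5, a stress-responsive MAP kinase, read 8.83, 8.94 and 8.76 in H1493HT, 8.62, 8.84 and 8.85 in Co27HT, 9.53, 9.79 and 9.64 in H1493LT, and 10.64, 10.51 and 10.65 in Co27LT. The lines overlapped at high temperature, and H1493 rose by 0.81 ± 0.11 (SE, adjusted p = 0.000451, limma). MAPK6, a second MAP kinase, averaged 10.02, 9.86, 10.36 and 11.17, with no temperature difference in H1493 that passed (adjusted p = 0.117). PP2C29, a protein phosphatase 2C, a family that includes negative regulators of abscisic acid signalling, averaged 7.46, 7.4, 8.22 and 9.69 and rose in H1493 by 0.77 ± 0.20 (adjusted p = 0.0168). RR9, a type-A response regulator that cytokinin induces, read 6.33, 6.09 and 6.41 in H1493HT, 6.42, 6.01 and 6.14 in Co27HT, 8.74, 8.62 and 9.02 in H1493LT, and 9.68, 9.56 and 9.55 in Co27LT. In both lines its low-temperature arrays lay above its high-temperature arrays, and in H1493 it rose by 2.52 ± 0.15 (adjusted p = 3.91e-06, limma).

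Of the trehalose genes, TPP1, which removes the phosphate from trehalose-6-phosphate, read 8.02, 7.60 and 7.72 in H1493HT, 7.56, 7.34 and 7.99 in Co27HT, 10.92 on each of the 3 H1493LT arrays, and 12.55, 12.65 and 12.56 in Co27LT. The lines overlapped at high temperature and were apart at low temperature. TPP1 rose in H1493 by 3.14 ± 0.17 (SE, adjusted p = 2.41e-06, limma). TPP2, an enzyme of the same activity, averaged 8.01, 7.91, 9.02 and 9.86 and rose in H1493 by 1.01 ± 0.15 (adjusted p = 0.000764). TPP7, which the rule left out, had a margin of 2.22, and the 6 probe sets of JAZ genes that it left out had margins from 0.82 to 2.43.

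The DREB list held 8 genes, of which only DREB1G was in the set. DREB1B and DREB1E, of the same family, passed the test between Co27LT and H1493LT without meeting the rule. In both, Co27HT was within 0.8 of Co27LT, and in DREB1B so was H1493HT. DREB1B averaged 8.28, 8.76, 6.34 and 9.02 in H1493HT, Co27HT, H1493LT and Co27LT, and the 2 low-temperature groups differed by 2.68 ± 0.21 (SE, adjusted p = 0.000350, limma). DREB1E averaged 6.12, 6.89, 5.36 and 7.57, a difference of 2.21 ± 0.21 (adjusted p = 0.000996). In DREB1G, DREB1B and DREB1E, H1493LT had the lowest mean of the 4 groups, but this was not so for the whole list. Between temperatures in H1493, 1 of the 8 genes rose and 1 fell by 2-fold or more (adjusted p under 0.05, limma). Both were outside the set, and the median difference over the 8 was -0.74. The study reported some CBF/DREB genes as induced by low temperature.

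Phenylpropanoid and secondary metabolism followed. 4CL5, a 4-coumarate:CoA ligase, read 6.14, 6.09 and 6.41 in H1493HT, 5.78, 6.34 and 5.95 in Co27HT, 6.99, 6.73 and 6.95 in H1493LT, and 8.66, 8.82 and 8.96 in Co27LT. LOC_Os02g41670, a phenylalanine ammonia-lyase, which catalyses the first step of the pathway, averaged 6.20, 5.93, 8.11 and 9.77. In H1493 both rose at low temperature, by 0.68 ± 0.17 (SE, adjusted p = 0.0136, limma) and 1.90 ± 0.26 (adjusted p = 0.000525). LOC_Os11g05380, a cytochrome P450, had the widest margin of the genes with a symbol or locus, 3.39, and read 5.71, 5.41 and 4.56 in H1493HT, 4.98, 1.04 and 4.56 in Co27HT, 5.24, 5.43 and 4.99 in H1493LT, and 8.22, 8.74 and 8.90 in Co27LT. Its 9 other arrays were all under 6, near background, and overlapped. BGLU30, a beta-glucosidase read by 2 probe sets of the set, averaged 8.94, 8.71, 9.46 and 10.88 in the first and 9.01, 9.06, 9.48 and 10.80 in the second. Of 15 phenylpropanoid genes with a symbol, 4CL5 was the only one in the set, and the median difference between Co27LT and H1493LT was -0.28 over the 14 others.

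Several bright genes were nearly level in the 3 other groups. GRXS5, a glutaredoxin, read between 10.82 and 11.12 on the 9 other arrays and 12.18, 12.21 and 12.19 in Co27LT. LOC_Os01g70790, an SRC2 protein, read between 11.06 and 11.32 on the others and 12.33, 12.43 and 12.35 in Co27LT. DI19-3, of the drought-induced zinc finger family, read between 11.04 and 11.39 on the others and 12.41, 12.21 and 12.39 in Co27LT. The temperature difference in H1493 passed for none of these 3 (adjusted p from 0.154 to 0.424, limma). HAK7, a potassium transporter with 2 probe sets in the set, was not level, with means of 10.21, 9.95, 10.72 and 11.63 in the brighter, which rose in H1493 by 0.50 ± 0.09 (SE, adjusted p = 0.00297, limma). FH16, a formin, averaged 8.33, 8.33, 8.62 and 9.73, and SAP17, of the stress-associated zinc finger proteins, 7.77, 8.12, 7.77 and 9.04.

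Of the other lists with members, 2 of 17 MAP kinases and their kinases were in the set, 1 of 55 protein phosphatases 2C, 1 of 22 potassium transporters, 1 of 13 response regulators and 2 of 29 stress-associated zinc finger proteins. Over all probe sets with 1 gene and a symbol or synonym it was 30 of 3193. Over the genes of these lists that were not in the set, the median differences between Co27LT and H1493LT were 0.02, 0.10, 0.04, 0.12 and 0.04. Outside the set, PP2C68 (1.82 ± 0.22, SE, adjusted p = 0.00339, limma), HAK4 (1.04 ± 0.21, adjusted p = 0.0465) and SAP11 (1.05 ± 0.18, adjusted p = 0.0209) were higher in Co27LT by 2-fold or more. These 3 were named after their values were seen. PP2C68 averaged 8.65, 8.88, 4.39 and 6.21 in H1493HT, Co27HT, H1493LT and Co27LT, and HAK4 averaged 6.61, 6.74, 5.62 and 6.66, so both had their lowest mean in H1493LT, under 6 and near background.

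The contrasts between H1493LT, H1493HT and Co27HT hold no Co27LT mean, but their spread was estimated over all 12 arrays, those of Co27LT included. The rule also set an upper bound on all 3 groups and required Co27LT to lie above Co27HT. A probe set that fell at low temperature in both lines could therefore not enter. The temperature counts are thus partly fixed by the rule and are a description. The line counts are not wholly independent of it either. Between temperatures in H1493, 97 of the 223 rose and 4 fell at an adjusted p under 0.05 (limma). Of all probe sets 13.8% rose and 13% fell, and of those with a Co27LT mean of at least 7, 33.7% rose and 24.1% fell, against 43.5% and 1.79% of the set. With a fold of at least 2, 67 rose, 30%, against 5.34% of all and 11.5% of the bright ones, and 1 fell, against 6.24% of all and 7.37% of the bright ones. The 3 H1493LT arrays lay above the 3 H1493HT arrays for 140 members and below for 10, 62.8% and 4.48%, against 44.2% and 31.8% of the bright probe sets and 20.3% and 20.5% of all. The median difference was 0.60 for the set, -0.07 for all and 0.12 for the bright ones. Without any 1 Co27LT array 90 to 91 rose, and 87 did with only the 6 arrays compared.

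Between the lines at high temperature, 15 members were higher in Co27HT and 13 were lower (adjusted p under 0.05, limma), 6.73% and 5.83% of the set. Of all probe sets, 0.831% were higher and 1.75% lower, and of the bright ones 1.73% and 4.14%. By arrays that do not overlap, the set was below the bright ones. The 3 Co27HT arrays lay above the 3 H1493HT arrays for 32 members and below for 28, 14.3% and 12.6%. The shares were 18.1% and 21.7% of the bright probe sets and 11.5% and 11.1% of all. The median difference was -0.00465 for the set and 0.03 for all. The counts between the lines rest on few calls: leaving out any 1 array other than Co27HT replicate 3 took the lower count to between 4 and 7, without that array it was 14, and with only the 6 arrays compared it was 0, with 1 higher.

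**Figure D4:**
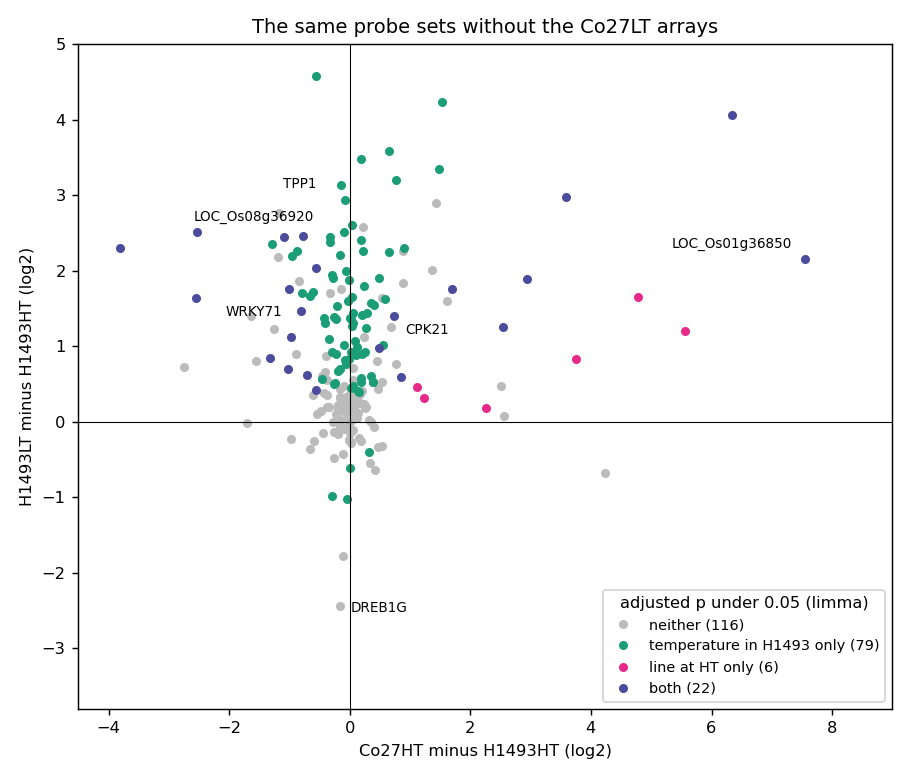
For each of the 223 probe sets, the log2 difference between temperatures in H1493 (vertical) against that between the lines at high temperature (horizontal), coloured by which passed an adjusted p of 0.05. Most points lie above 0 on the vertical axis and near 0 on the horizontal one, and the points far to the right are headed by LOC_Os01g36850. Both differences are taken from the same H1493HT arrays.

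Those higher in Co27HT were headed by LOC_Os01g36850, annotated as a transposon protein of the Pong class, a family of DNA transposons. It read 3.34, 4.08 and 3.66 in H1493HT, 11.09, 11.29 and 11.37 in Co27HT, 5.95, 6.22 and 5.38 in H1493LT, and 12.75, 12.84 and 12.78 in Co27LT. Both TGMS-Co27 groups were far above both H1493 groups, and the lines differed at high temperature by 7.55 ± 0.24 (SE, adjusted p = 1.39e-06, limma). H1493LT was above H1493HT by 2.16 ± 0.24 (adjusted p = 0.000126), as it was for the brighter reporter control, and what part they have in common was not tested.
LOC_Os11g17954, also annotated to the Pong class, averaged 4.21, 6.71, 4.68 and 7.74, with a line difference of 2.5 ± 0.57 that did not pass (adjusted p = 0.0572). LOC_Os02g19700, a hypothetical protein, had 2 probe sets of this kind, which averaged 5.43, 9.19, 6.27 and 11.72, and 2.17, 7.72, 3.38 and 9.79, with line differences at high temperature of 3.76 ± 0.37 (adjusted p = 0.00237) and 5.55 ± 0.53 (adjusted p = 0.00210). LOC4347693, a gene with no symbol, read 5.10, 5.92 and 5.73 in H1493HT, 8.75, 8.32 and 8.5 in Co27HT, 7.72, 7.25 and 7.46 in H1493LT, and 11.21, 11.12 and 11.14 in Co27LT, 4 groups with no overlap. Neither LOC4347693 nor LOC_Os02g19700 had a present call on any H1493 array, and both were present on every TGMS-Co27 array. Their H1493 signals are thus not detected levels.

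Those lower in Co27HT were led by a probe set with no annotated gene, which read 8.78, 8.59 and 8.66 in H1493HT, 5.73, 5.58 and 3.31 in Co27HT, 10.98, 11 and 10.96 in H1493LT, and 13.10, 13.12 and 13.13 in Co27LT. TGMS-Co27 was thus below H1493 at high temperature, by -3.81 ± 0.53 (SE, adjusted p = 0.0111, limma), and above it at low temperature. LOC_Os04g51460, of glycosyl hydrolase family 16, which includes enzymes that remodel cell wall xyloglucan, averaged 6.20, 5.22, 7.32 and 8.74, with a line difference at high temperature of -0.98 ± 0.17 (adjusted p = 0.0238). LOC_Os07g07040, annotated as an erythrocyte binding protein, averaged 11.73 in H1493HT and 11.17 in Co27HT, a difference of -0.56 (adjusted p = 0.0390, limma).

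The widest margin of all, 4.73, belonged to a probe set with no annotated gene, which read 2.81, 4.14 and 5.67 in H1493HT, 1.34, 0.46 and 2.60 in Co27HT, 5.04, 4.60 and 5.15 in H1493LT, and 9.44, 9.74 and 9.79 in Co27LT. Every array outside Co27LT was under 6, near background. LOC4335417, a gene with no symbol, was brighter, with 7.57, 7.65 and 7.70 in H1493HT, 6.44, 6.98 and 7.17 in Co27HT, 10.07, 10.05 and 10.15 in H1493LT, and 12.82, 12.85 and 12.82 in Co27LT, and rose in H1493 by 2.45 ± 0.16 (SE, adjusted p = 7.45e-06, limma). LOC4335417 had no present call in Co27HT. These 2, LOC4347693 and the probe set that led those lower in Co27HT were named after their values were seen, as were WRKY53, LOC_Os03g60570, LOC_Os09g24580, LOC_Os02g41670, LOC_Os02g19700, CPK4 and ACA7. Of these, LOC_Os09g24580, LOC_Os02g41670 and LOC_Os02g19700 have no annotated gene, and LOC_Os03g60570 has several. The loci and descriptions of these come from the study's supplementary tables alone.

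Several members read the same gene. For 12 genes the set holds more than 1 probe set, 27 in all, with 4 for LOC4335780, whose Co27LT means were 7.99, 7.22, 8.28 and 9.44 and whose H1493LT means were 5.14, 5.01, 6.41 and 7.70. LOC_Os01g47580, a lipid phosphatase, had 3, with Co27LT means of 7.35, 8.61 and 7.46 and high-temperature means all under 6. The first of these has no annotated gene, was assigned by its supplementary locus alone and is not among the 27. For 25 member genes the array has a further 32 probe sets that the rule did not take. Of the 19 of these with a mean of at least 6, Co27LT had the highest mean in 14 and all 3 of its arrays were above the others in 10. The median margin of the 19 was 0.28, and one that met every condition would have been in the set. LOC4349620 and LOC4325662 were among the genes whose other probe sets did not put Co27LT first, with margins of -0.23 and -0.74.

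Of 142 member genes that could be placed in gene order on the RefSeq assembly, 8 pairs lay at most 5 genes apart, and 3 of these were neighbours: LOC4324133 with LOC4324134, LOC4349014 with LOC9267999, and LOC4330779 with LOC_Os02g52010, which encodes a phosphate-induced protein. CML16, GRXS5 and LOC4347693 were each in 1 of the other pairs.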

How the data were processed

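Biotin-labelled RNA of 12 samples was hybridised to Affymetrix rice arrays. The values that the authors deposited are MAS5 signals on a log2 scale, 1 for each probe set, beside detection calls. On a linear scale the 2% trimmed mean of an array was 500.065 to 500.076, and 43.8% to 46.1% of probe sets were called present. The methods also name quantile normalization, which these values do not show. The values were used as deposited; 187 control probe sets (123 AFFX and 64 reporter) were left out and 57194 tested. The number of arrays limits the precision. In the main fit, a p-value weighs a difference of means against the spread between biological replicates, pooled over the 4 groups of 3. Each temperature had 1 site and 1 season, so this spread holds no variation between sites or seasons.

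Differences were fitted with limma 3.58.1 in R 4.3.3 (a mean for each of 4 groups over all 12 arrays, moderated by eBayes with 0.99 prior degrees of freedom) and adjusted by Benjamini-Hochberg over all 57194. The fit was tested on simulated data. The fit over all probe sets includes comparisons with Co27LT, and none is given for a member, since the rule used them. The members and the gene lists were chosen with earlier results of these data known, and 6 lists (MAP kinases, protein phosphatases 2C, phenylpropanoid enzymes, potassium transporters, response regulators and stress-associated zinc finger proteins) were added after the members were seen. Lists hold genes by RefSeq symbol or synonym, each read by its brightest probe set. Named by rule are members with 1 gene and a symbol or description. They are the 30 with the widest margin and up to 5 of each list. With them are up to 6 in each direction with the largest difference between temperatures in H1493 or lines at high temperature. Those nearest the margin and Ugp1 were named as well. RefSeq names and gene order come from assembly ASM3414082v1; the array's own build is not given in the sources used here. Sequences were not analysed here. Alternatives were other scalings, a floor, filters on dim probe sets, other margins, a robust trend, the arrays compared alone, a replicate block and each array left out.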

Additional observations from a re-analysis of the deposited data

Results flagged for a closer look

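In 4 members every H1493LT array lay below every H1493HT array and the fall passed the test (limma), while TGMS-Co27 was higher at low temperature by choice of the rule; the difference between the lines was not tested. A probe set with no annotated gene changed in H1493 by -1.03 ± 0.13 (log2, SE, adjusted p = 0.000266), from 8.64, 8.83 and 8.83 to 7.62, 7.72 and 7.88, while its Co27HT arrays read 8.82, 8.87 and 8.47 and its Co27LT arrays 10.34, 10.34 and 10.35. Another without a gene, which was dim, changed by -0.98 ± 0.30 (adjusted p = 0.0363), LOC4337329 by -0.62 ± 0.13 (adjusted p = 0.00571) and LOC4341871 by -0.40 ± 0.10 (adjusted p = 0.0147). LOC4341871 read 10.03, 10.09 and 9.89 in H1493LT and 12.03, 11.95 and 12.03 in Co27LT.

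A reporter control probe set outside the comparisons had a mean log2 signal of 8.27 ± 0.18 (SD, n = 3) in H1493LT, above its 2.53 ± 1.87 in H1493HT and below its 14.35 ± 0.06 in Co27LT.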

How the results depend on the processing

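The set held 223 probe sets, 217 to 230 with any 1 array left out, and from 152 (margin of 1) to 333 (margin of 0.6) under the other settings, apart from 3232 without the condition against H1493LT, a setting chosen after seeing the data. The rise in H1493 at low temperature was called for 97, 81 to 103 with an array left out and 78 to 118 otherwise. The fall was called for 4, 3 to 4 with an array left out, 2 with arrays centred on their medians, 9 with dim probe sets filtered out, 7 with the robust trend and 2 with only the 6 arrays compared. The members higher in Co27HT than in H1493HT numbered 15, 11 to 15 with an array left out, 23 with the robust trend and 1 with the 6 arrays compared. Those lower numbered 13, 14 without Co27HT replicate 3 and 4 to 7 without any 1 other array, 21 with the filter, 22 with the robust trend and 0 with the 6 arrays. Over all lists, with a 2-fold difference, 3 genes were higher in Co27HT than in H1493HT (2 to 5 with an array left out, the 5 without Co27HT replicate 3, 0 with the 6 arrays, 5 unadjusted) and 6 lower (4 to 8, and 0 with the 6 arrays). Between Co27LT and H1493LT 3 were lower (0 to 3 with an array left out, 0 without H1493LT replicate 1 or Co27LT replicate 3 and 1 without H1493LT replicate 3, 1 with the 6 arrays, 7 unadjusted). The cause was not tested, except that the fit to 6 arrays has fewer samples.

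The labels number the replicates alike in each group. The deviations of same-numbered samples correlated between -0.0972 and 0.0398 over 18 pairs, none over 0.1. Whether same-numbered samples shared any handling was not tested. With a replicate block the members lower in Co27HT numbered 3, the higher 10, and those that rose in H1493 91.

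Of 27 tested differences of named members, none changed direction under any setting run. With an array left out 262 of their values kept their side of the threshold and 62 lost it, and under the other settings 171 and 15. Of the margins of 41 named members, 467 values with an array left out moved by less than the SD of the Co27LT arrays and 25 by more, and under the other settings 110 and 13; none fell below 0.

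Signals under 6 are near background, so the sizes of differences that involve them are not exact.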
